A study of Mus musculus with 6 samples.

Results

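RNA levels of 10 genes of the autophagy pathway were measured by RNA sequencing in mouse keratinocytes with and without iASPP, a nuclear and cytoplasmic regulator of p53-family proteins encoded by Ppp1r13l. The genes are Ulk1, Becn1, Atg9a, Atg9b, Atg5, Atg12, Atg16l1, Map1lc3b, Gabarapl1 and Sqstm1. They were chosen by name for their roles in initiation, membrane supply, conjugation and cargo binding, with earlier results of these data known. Counts among them are therefore not a blind comparison with all genes. They make up 10 of the 55367 gene names in the count table. All 10 had enough reads to be tested.

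Primary keratinocytes, epidermal cells grown directly from skin, came from pups aged 2 days with the genotype Ppp1r13lflox/flox;Cre+ERT on a mixed background of C57BL/6 and 129/Sv. The Cre sits at the Rosa26 locus, which is active in most cell types, and deletes the floxed part of Ppp1r13l once tamoxifen is added. Cells of 3 batches were each split into a culture given tamoxifen 24 h after plating (iASPP KO) and a culture left without it (iASPP WT), which gave 6 libraries in 3 pairs, kept for 4 days in low-calcium medium. The floxed alleles and the Cre were carried by both groups, whereas tamoxifen was given to the KO cultures only, so the drug and the deletion cannot be told apart. The labels give the tamoxifen dose as 1 mM and the study's methods give it in μM. Whether a batch is 1 litter or several was not stated, and p-values measure the spread between these cultures.

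Library totals ran from 20202517 to 25157117 counts, so that 3 counts corresponded to 0.119 to 0.148 CPM (read counts as parts of a fixed library total). All gene levels are given in CPM that were also scaled by edgeR's TMM factors, which adjust for differences in library composition. Ppp1r13l itself was read at 14.2, 17.7 and 5.90 CPM in KO batches 1, 2 and 3 and at 32.6, 45.1 and 21.0 CPM in WT. Each KO library lay below each WT library, and the fitted log2 fold change was -1.45 (SE 0.18, adjusted p = 0.00296).

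Autophagy encloses cytoplasm, damaged organelles and protein aggregates in a double membrane, the autophagosome, which then fuses with the lysosome. The ULK1 kinase complex starts the process, a lipid kinase complex built on Beclin 1 marks the site, and ATG9 vesicles supply the first membrane. The ATG12-ATG5 conjugate with ATG16L1 attaches the ubiquitin-like Atg8 proteins (the LC3 and GABARAP families) to the membrane, where receptors such as p62, the product of Sqstm1, bind them and bring in cargo. In keratinocytes autophagy takes part in the removal of organelles during cornification, and iASPP has been described as restraining it through the ATG5-ATG12-ATG16L1 complex.

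Atg9b and Sqstm1, 2 of the 10 genes, rose in iASPP KO keratinocytes, and none fell. Atg9b, which encodes the tissue-restricted form of the ATG9 lipid scramblase, rose 2.36-fold, and Sqstm1 rose 1.79-fold. The ATG12-ATG5-ATG16L1 genes, Becn1, Ulk1, Atg9a and both Atg8 genes did not pass the test. Among all 14916 genes tested, 2.17% were called higher in KO and 1.95% lower, against 2 and 0 of these 10. At an unadjusted p under 0.05 in edgeR, 5 of the 10 were higher and 0 lower, beside 8.66% and 8.09% of all tested genes. DESeq2 called 2 of the 10 higher and 0 lower, beside 3.98% and 3.38% of the 12121 genes to which it gave an adjusted p. The median log2 fold change of the 10 genes was 0.23, beside 0.01 over all tested genes. In all 3 batches, 6 of the 10 were higher in KO, as were 19.5% of all tested genes, and 1 of the 10 was lower in KO throughout, again beside 19.5%.

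Because Atg9b and Sqstm1 both rose, the 250 bases upstream of their annotated starts are shown, read 5′ to 3′ from the RefSeq promoter table (GRCm38.p6). The window of Atg9b is chr5:24392144-24392393 on the minus strand, and that of Sqstm1 is chr11:50210821-50211070 on the minus strand, whose last 7 bases lie inside the gene as the count table places it. Capitals mark GC boxes, the letters GGGCGG on either strand (CCGCCC on the other):
Atg9b: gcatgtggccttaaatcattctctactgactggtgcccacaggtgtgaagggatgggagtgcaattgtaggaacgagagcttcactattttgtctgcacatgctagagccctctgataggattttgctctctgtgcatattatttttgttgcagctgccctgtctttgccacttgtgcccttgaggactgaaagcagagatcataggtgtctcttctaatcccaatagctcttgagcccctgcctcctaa
Sqstm1: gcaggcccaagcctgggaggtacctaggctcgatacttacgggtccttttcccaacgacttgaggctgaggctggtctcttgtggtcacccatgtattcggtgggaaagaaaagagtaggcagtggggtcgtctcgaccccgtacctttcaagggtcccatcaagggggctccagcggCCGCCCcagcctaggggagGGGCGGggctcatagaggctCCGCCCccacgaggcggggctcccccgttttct

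The sequences differ in composition. GC content was 47.6% upstream of Atg9b and 63.2% upstream of Sqstm1, and the median over 32851 promoters of the table was 52.4%. Sqstm1 held 3 GC boxes and Atg9b held 0, and 32.7% of all promoters held at least 1. Of the 10 genes, 7 have an entry in this table (Atg12, Atg16l1 and Becn1 are the others), and 5 of the 7 held a GC box, namely Atg5, Ulk1, Map1lc3b, Gabarapl1 and Sqstm1. These windows are not all upstream sequence. Most of the Atg9a window (186 bases) lies inside the gene as the count table places it. The same holds for 77 bases of the Map1lc3b window, 32 of Gabarapl1 and 16 of Ulk1, and for 0 of Atg9b and Atg5. A further 3 motifs were searched on both strands: TGANTCA, the core bound by AP1; TGACNNNGC, the core of the antioxidant response element bound by NRF2; and CACGTG, an E-box bound by TFEB and TFE3 among others. The first 2 matched none of the 7 and occurred in 6.75% and 10.2% of all promoters. CACGTG matched 1 of the 7, Atg5, and 6.02% of all promoters. A match is a matter of letters and not a measured binding site.

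Keratinocyte markers such as Krt5 and Krt14 summed to between 29176 and 34273 CPM, and 0 of 9 changed. The 8 fibroblast genes summed to 480 and 706 CPM in KO and WT of batch 3. The sums were 51.7 and 52.4 CPM in KO and WT of batch 1, and 67.3 and 61.3 CPM in batch 2. Col1a2 and Col3a1, which encode fibrillar collagens, fell in KO, and the rest of the 8 did not pass. Among these, Dcn had a log2 fold change of -0.02 (adjusted p = 0.980). Pdgfra was the only gene of the 8 with a positive value (0.81, adjusted p = 0.258). The 6 melanocyte genes summed to between 341 and 1086 CPM with 0 changed, and the 5 endothelial genes reached at most 13.0 CPM in sum, with 0 changed of the 3 that could be tested. The 10 macrophage and leukocyte genes summed to between 65.3 and 83.8 CPM in KO and between 44.0 and 65.8 CPM in WT, and 6 of them could be tested. Of these, Csf1r rose (log2 fold change 1.11, adjusted p = 0.0206) and the other 5 did not pass. Ptprc was at most 2.13 CPM in any library, and Cd3e was at 0 in all. Others of the list were higher: Cd68 reached 42.4 CPM in WT batch 2 and Lyz2 59.0 CPM in KO batch 3. The part of these cells in the changes of Atg9b and Sqstm1 was not tested. In bulk RNA, fewer cells of a type and less RNA per cell cannot be told apart.

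**Figure D1:**
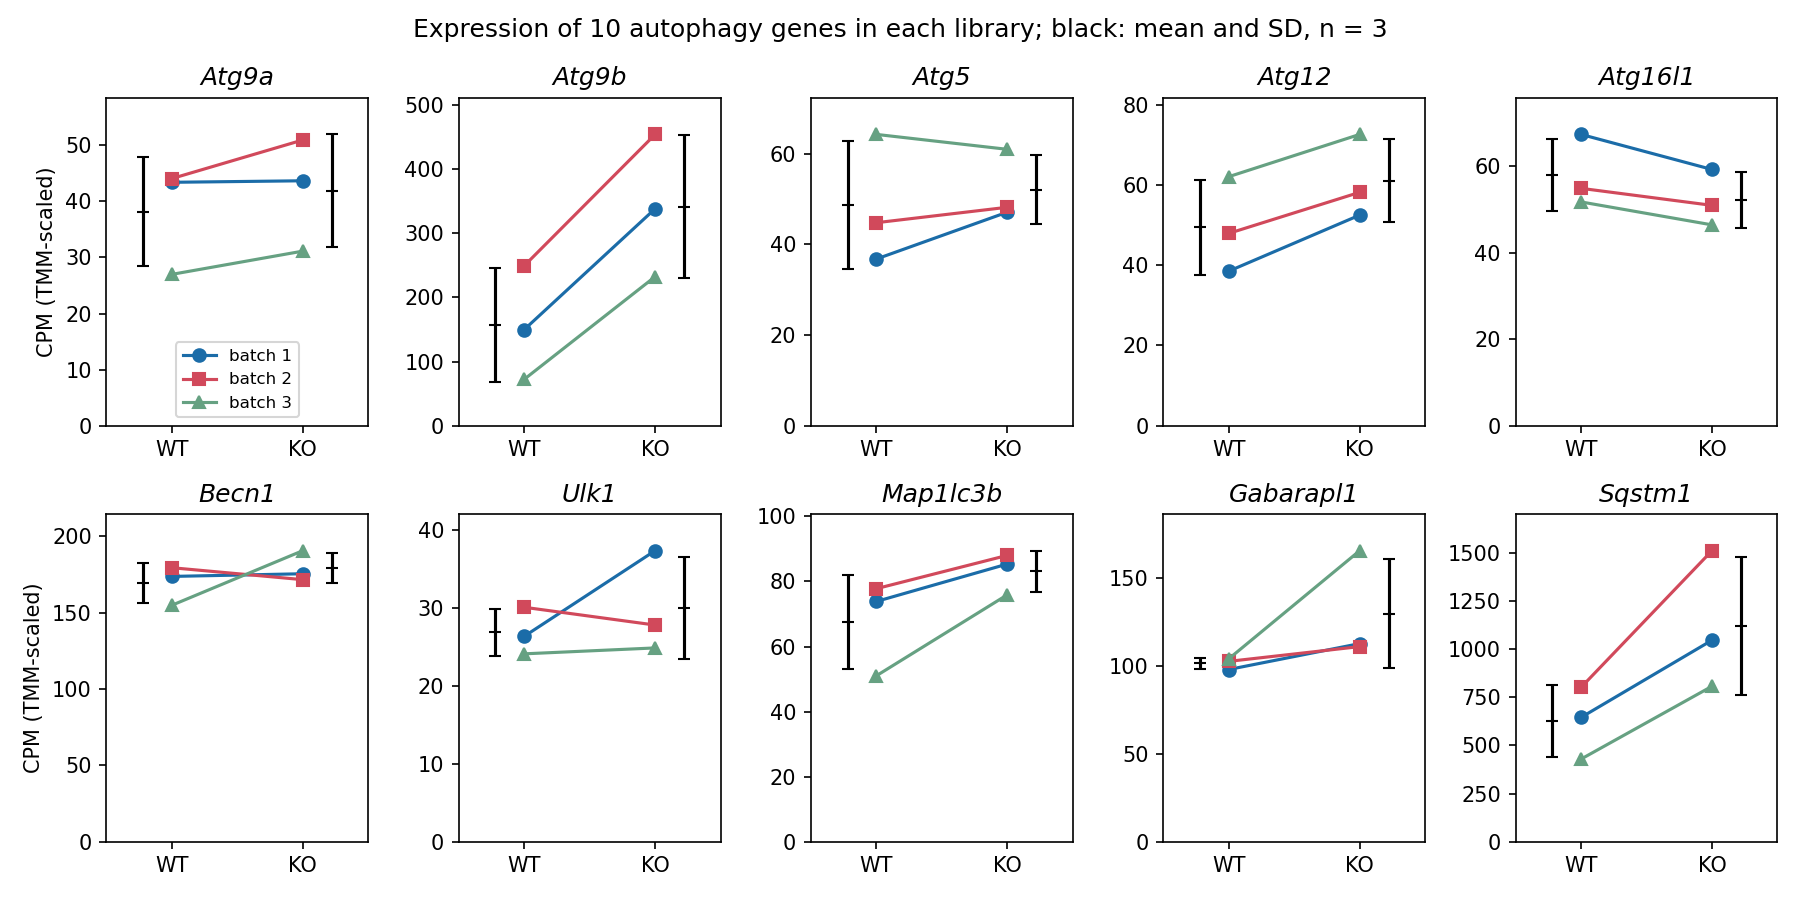
Expression of the 10 autophagy genes in each library, in TMM-scaled CPM on linear axes from 0, with lines joining the WT and KO culture of one batch and black bars giving the mean and SD of 3 libraries. For Atg9b and Sqstm1 all 3 lines rise steeply, from 72.2 to 249 CPM in WT to between 232 and 454 CPM in KO for Atg9b, while the lines of Becn1, Ulk1 and Atg5 cross or run in different directions.

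ATG9 is the only transmembrane protein of the core machinery, and mammals have a ubiquitous gene (Atg9a) and a restricted one (Atg9b). Atg9b (minus strand, chr5:24384181-24392143, GRCm38) was read at 149.7, 249 and 72.2 CPM in WT batches 1, 2 and 3. In the KO cultures of the same batches it was read at 338, 454 and 232 CPM. Batch 2 was highest and batch 3 lowest in both groups, so the groups overlapped across batches: KO batch 3 lay under WT batch 2. Within each batch the KO culture was higher, with log2 fold changes of 1.18, 0.87 and 1.69. The means were 341 ± 111 CPM in KO and 157 ± 88.7 CPM in WT (SD, n = 3), and the fit with batch gave a log2 fold change of 1.24 (SE 0.15, adjusted p = 0.00269).

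Atg9a (minus strand, chr1:75180860-75192196) stayed between 27.0 and 51.0 CPM in all 6 libraries. Its within-batch log2 fold changes were 0.01, 0.21 and 0.21, and the fitted value was 0.14 (SE 0.14, adjusted p = 0.688). Levels of the 2 paralogs can be compared per kilobase of exon. On that scale Atg9a stood at 7.28 ± 1.74 CPM per kb in KO and 6.62 ± 1.68 in WT, and Atg9b at 86.5 ± 28.1 in KO and 39.8 ± 22.5 in WT. The restricted paralog was thus the more abundant one in these keratinocytes in every library, by a factor of 5.04, 8.25 and 3.90 in WT batches 1, 2 and 3 and of 11.3, 13.0 and 10.9 in KO. The log2 ratio of Atg9b to Atg9a was higher in KO in 3 of 3 batches, by 1.10 ± 0.42 on average (SD, n = 3). An exact two-sided paired permutation test gave p = 0.25, the smallest that 3 pairs allow. Of the exonic bases of Atg9a, 31.8% also belong to Gm29253 on the same strand, a predicted gene with 0 counts in all 6 libraries. By default the counting program leaves reads in such stretches out of both genes, which would lower the level of Atg9a. Exon length covered all annotated exons, 5762 bases for Atg9a and 3946 for Atg9b. Their longest transcripts have 4218 and 3902 bases, which would also lower Atg9a beside Atg9b.

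Atg9b overlaps Nos3, which encodes endothelial nitric oxide synthase, tail to tail on opposite strands, over 7.45% of its exonic bases. Reads were counted by strand. Nos3 had between 11 and 72 counts in a library, against 1623 to 10132 for Atg9b, and did not pass the test (log2 fold change 0.70, SE 0.62, adjusted p = 0.656). No stretch of read length (42 bases) in the longest Atg9b transcript occurred in a transcript of another locus.

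Sqstm1 (minus strand, chr11:50199366-50210827) encodes p62, which binds ubiquitin and the Atg8 proteins, is itself degraded by autophagy, and holds KEAP1 away from NRF2. It was the most abundant of the 10 genes. WT cultures of batches 1, 2 and 3 gave 645, 801 and 429 CPM. KO cultures gave 1045, 1510 and 807 CPM. The lowest KO library lay just above the highest WT library, so the groups did not overlap, as was also the case for Gabarapl1 and for 5.26% of all tested genes. Batch 2 was again highest and batch 3 lowest in both groups. The within-batch log2 fold changes of Sqstm1 were 0.70, 0.91 and 0.91, closer together than those of Atg9b. Means of 1121 ± 357 CPM in KO and 625 ± 187 CPM in WT (SD, n = 3) stood beside a fitted log2 fold change of 0.84 (SE 0.11, adjusted p = 0.00325). Mrnip lies on the opposite strand over 17.3% of the exonic bases of Sqstm1 and had 27 to 101 counts in a library. Keap1 and Nfe2l2, the genes of KEAP1 and NRF2, did not pass (log2 fold changes -0.14 and 0.22, adjusted p = 0.678 and 0.450).

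The spread between batches was large beside the KO effect for both genes. The highest batch exceeded the lowest 3.45-fold in WT and 1.95-fold in KO for Atg9b, and 1.87-fold in both groups for Sqstm1. Both calls rest on comparing cultures of one batch. Without the replicate block 0 of the 10 genes and 0 of all 14916 tested genes passed in edgeR, so this loss was not particular to Atg9b and Sqstm1. Their log2 fold changes in that fit were 1.12 for Atg9b and 0.84 for Sqstm1, with an adjusted p of 0.973 for each. With the block and batches 1 and 2 alone, the log2 fold changes were 1.02 for Atg9b and 0.81 for Sqstm1.

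**Figure D2:**
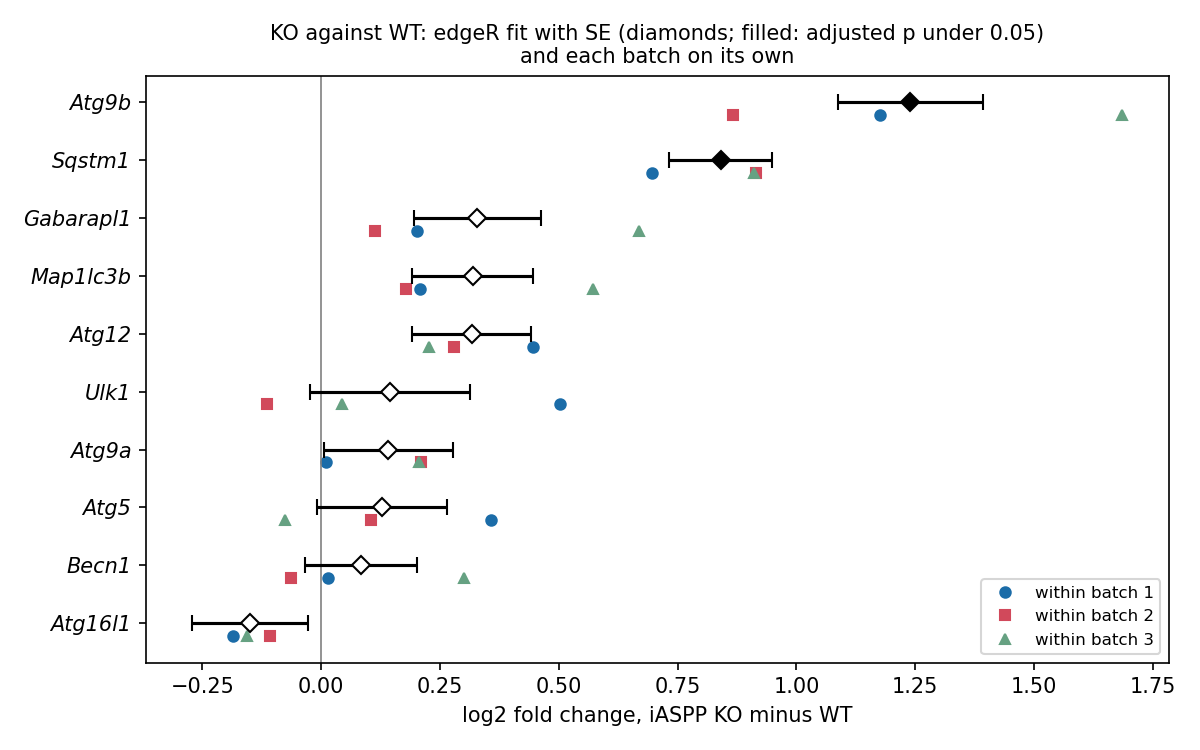
Log2 fold change of each of the 10 genes, KO minus WT. Diamonds with bars are the edgeR fit with its SE over 3 batches (filled where the adjusted p was under 0.05), and coloured symbols are the separate batches, of which the 6 of Atg9b and Sqstm1 lie to the right of all others.

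The Atg8 proteins are the tags of the autophagosome membrane. Map1lc3b, which encodes LC3B, the usual marker protein of autophagosomes, gave 73.9, 77.8 and 51.0 CPM in WT batches 1, 2 and 3 and 85.3, 88.0 and 75.9 CPM in KO. It was higher in KO within each batch, yet the groups overlapped and the test was not passed (log2 fold change 0.32, SE 0.13, adjusted p = 0.234). Of its read-length windows, 10.7% occur in transcripts of other loci, so part of its signal is uncertain. Gabarapl1, of the GABARAP branch, gave 97.9, 103 and 104 CPM in WT and 113, 111 and 165 CPM in KO. Here the KO libraries all lay above the WT libraries, but the within-batch log2 fold changes of 0.20, 0.11 and 0.67 were uneven, with batch 3 well above the others, and the fitted value of 0.33 (SE 0.13) did not pass (adjusted p = 0.244). On its opposite strand 1700101I11Rik covers 28.3% of the exonic bases, with 2 to 22 counts in a library.

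The 3 remaining Atg8 genes complete the family. Gabarap rose, with 194, 239.7 and 157 CPM in WT batches 1, 2 and 3 and 288, 359 and 232 CPM in KO, a log2 fold change of 0.57 (SE 0.11, adjusted p = 0.0172). Its 3 within-batch values of 0.57, 0.58 and 0.56 were nearly equal. Without batch 1 or without batch 2 its adjusted p was 0.0771 and 0.121. Gabarapl2 (0.39, adjusted p = 0.275) and Map1lc3a (0.17, adjusted p = 0.572) did not pass, given as log2 fold changes. Per kilobase of exon, Gabarap made up 53.7 ± 7.22% of the family's total in KO and 48.7 ± 4.58% in WT (SD, n = 3). In the same order, Gabarapl1 held 22.2 ± 6.80% and 23.4 ± 2.96%, and Map1lc3a 16.5 ± 1.28% and 19.9 ± 2.72%. Map1lc3b held 3.77 ± 0.23% and 4.11 ± 0.58%. The GABARAP branch thus held most of the Atg8 transcript level in both groups. Differences between groups in these shares were not tested.

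The genes of the ATG5-ATG12-ATG16L1 complex, through which iASPP was described to act, did not pass the test at the RNA level. The proteins and their complex were not measured here. Atg5 (chr10:44268358-44364291, plus strand) gave 36.8, 44.8 and 64.2 CPM in WT batches 1, 2 and 3 and 47.1, 48.2 and 60.9 CPM in KO, higher in batches 1 and 2 and lower in batch 3 (log2 fold change 0.13, SE 0.14, adjusted p = 0.724). Atg12, the ubiquitin-like protein joined to ATG5, gave 38.5, 48.0 and 62.1 CPM in WT and 52.5, 58.2 and 72.7 CPM in KO. Every KO culture of Atg12 exceeded its WT partner, by log2 fold changes of 0.45, 0.28 and 0.23, and the fitted 0.32 (SE 0.12) did not pass (adjusted p = 0.229). Atg16l1, which positions the conjugate on the membrane, was the 1 gene of the 10 with a negative value in all 3 batches.

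Atg16l1 (chr1:87755870-87792428, plus strand) gave 67.3, 54.8 and 51.7 CPM in WT and 59.2, 50.9 and 46.4 CPM in KO. The within-batch log2 fold changes of -0.18, -0.11 and -0.16 were small and the groups overlapped (fitted value -0.15, SE 0.12, adjusted p = 0.622). Atg5 and Atg12 were highest in batch 3 in both groups and Atg16l1 lowest there, so the genes of one complex did not share an order of batches. The enzymes that build the conjugates did not pass either: Atg7, the E1-like enzyme, had a log2 fold change of 0.37 (adjusted p = 0.246), Atg3 0.24 (adjusted p = 0.501) and Atg10 -0.10 (adjusted p = 0.907).

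Neither the initiation nor the nucleation gene passed the test. Ulk1, the kinase that receives the signals of mTORC1 and AMPK, was the least abundant of the 10 per kilobase, with 26.3, 30.1 and 24.1 CPM in WT batches 1, 2 and 3 and 37.3, 27.8 and 24.9 CPM in KO. Its within-batch log2 fold changes were 0.50, -0.11 and 0.04, so that batch 1 stood apart, and the fitted 0.14 (SE 0.17, adjusted p = 0.751) turned to -0.03 without batch 1. Becn1, which encodes Beclin 1, gave 174, 179 and 155 CPM in WT and 175, 172 and 191 CPM in KO, without a common direction. Its fitted log2 fold change was 0.08 (SE 0.12, adjusted p = 0.802) and -0.03 without batch 3. Cntd1 lies opposite to 43.9% of the exonic bases of Becn1, with 22 to 121 counts in a library against 3482 to 4492 for Becn1. Their partners gave log2 fold changes of 0.57 for Atg13 (adjusted p = 0.0552), -0.24 for Ulk2, -0.18 for Rb1cc1, -0.14 for Pik3c3 and 0.12 for Atg14, none of which passed.

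**Figure D3:**
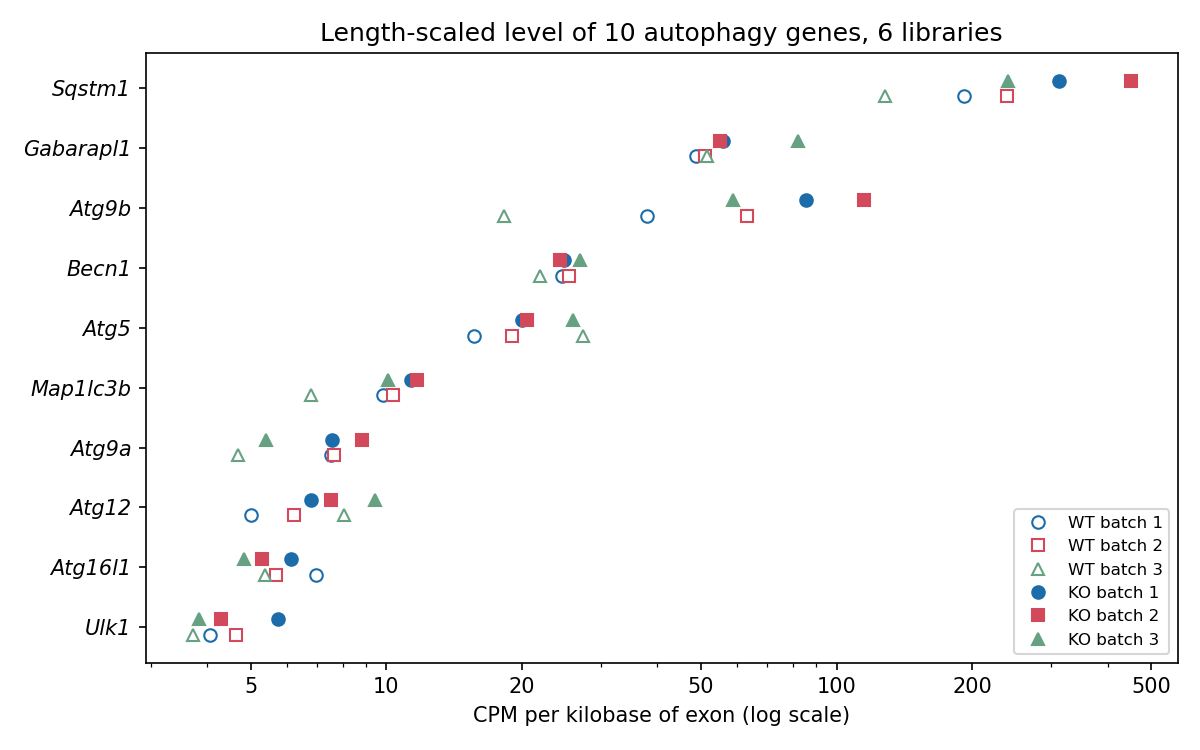
Level of the 10 genes in each of 6 libraries, as CPM per kilobase of exon on a log axis, with open symbols for WT and filled symbols for KO. Sqstm1 stands apart at the top, Ulk1, Atg16l1, Atg12 and Atg9a lie together at the bottom, and Atg9b covers the widest range, from 18.3 CPM per kb in WT batch 3 to 115 in KO batch 2.

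Per kilobase of exon, the order of levels in WT cultures was Sqstm1 (186 ± 55.6 CPM per kb), Gabarapl1 (50.4 ± 1.57), Atg9b (39.8 ± 22.5), Becn1 (24.0 ± 1.82), Atg5 (20.7 ± 6.01), Map1lc3b (8.99 ± 1.92), Atg9a (6.62 ± 1.68), Atg12 (6.42 ± 1.54), Atg16l1 (6.02 ± 0.86) and Ulk1 (4.14 ± 0.46), each SD over 3 libraries. The WT ranges of neighbours were separate between Sqstm1 and Gabarapl1, between Atg5 and Map1lc3b and between Atg16l1 and Ulk1, and overlapped for the other 6 neighbouring pairs. In KO cultures Atg9b (86.5 ± 28.1) stood above Gabarapl1 (64.4 ± 15.4), with overlapping SDs. The length used is that of all annotated exons of a gene name together, which lowers the level of genes with many long variants.

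The wider pathway was described with 74 further autophagy genes in 8 groups by role, all of which were tested. This list too was chosen with earlier results of these data known. Wipi1, Gabarap, Retreg1 and Ddit4 rose and 0 fell in edgeR, or 4 of 74 beside the 2.17% of all tested genes. At an unadjusted p under 0.05, 18 of the 74 were higher, beside 8.66% of all tested genes, and 1 was lower, beside 8.09% (Prkaa1, a catalytic subunit of AMPK, log2 fold change -0.40, adjusted p = 0.163). DESeq2 called 9 of the 74 higher and 0 lower, beside 3.98% and 3.38% of all genes. The median log2 fold change of the 74 genes was 0.16, and 57 of them had a positive value, as did 50.6% of all tested genes. By role, 1 of 8 further genes of the Atg9 and lipid transfer group rose, 1 of 3 further Atg8 genes, 1 of 15 further receptors and 1 of 17 upstream regulators, and 0 of 4 initiation genes, 0 of 7 genes of the lipid kinase complex, 0 of 8 conjugation genes and 0 of 12 fusion genes. The group medians were 0.33 for the Atg8 family, 0.26 for Atg9 and lipid transfer, 0.25 for receptors, 0.19 for fusion, 0.17 for conjugation, 0.12 for initiation, 0.08 for upstream regulators and 0.05 for the lipid kinase complex, with the 10 genes included.

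Wipi1 reads the lipid made by the Beclin 1 complex and acts near ATG9 membranes. It gave 42.9, 59.7 and 28.1 CPM in WT batches 1, 2 and 3 and 71.1, 85.5 and 55.1 CPM in KO (log2 fold change 0.74, SE 0.13, adjusted p = 0.0165, and 0.0516 without batch 1). Its batches fell in the same order as those of Atg9b. Retreg1, a receptor for autophagy of the endoplasmic reticulum, gave 34.2, 29.3 and 17.0 CPM in WT and 44.9, 54.5 and 44.3 CPM in KO (0.89, SE 0.19, adjusted p = 0.0287, and 0.115 without batch 2). Ddit4, a stress-induced inhibitor of mTORC1, gave 108, 141 and 109.6 CPM in WT and 187, 199.9 and 254 CPM in KO (0.84, SE 0.14, adjusted p = 0.0119). The KO libraries of Retreg1 and of Ddit4 all lay above their WT libraries. The same held for 8 of the 74 genes, these included, and for 5.26% of all tested genes.

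Several further genes did not pass but lay near the threshold. Rab7, which directs fusion with lysosomes, had a log2 fold change of 0.47 (adjusted p = 0.0541), Vmp1, an endoplasmic reticulum scramblase, 0.42 (adjusted p = 0.0560), Plekhm1, a fusion adaptor, 0.61 (adjusted p = 0.0675) and Wdr45, a relative of Wipi1, 0.83 (adjusted p = 0.0829). The cargo receptor genes Nbr1, Optn and Bnip3 did not pass. Their log2 fold changes were 0.26 (adjusted p = 0.246), 0.45 (adjusted p = 0.354) and -0.24 (adjusted p = 0.625). The transcription factors of lysosomal and autophagy genes gave -0.38 for Tfeb (adjusted p = 0.670), which was low at 4.52 ± 0.49 CPM in KO and 6.16 ± 2.40 CPM in WT, and 0.00 for Tfe3 (adjusted p = 0.996).

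**Figure D4:**
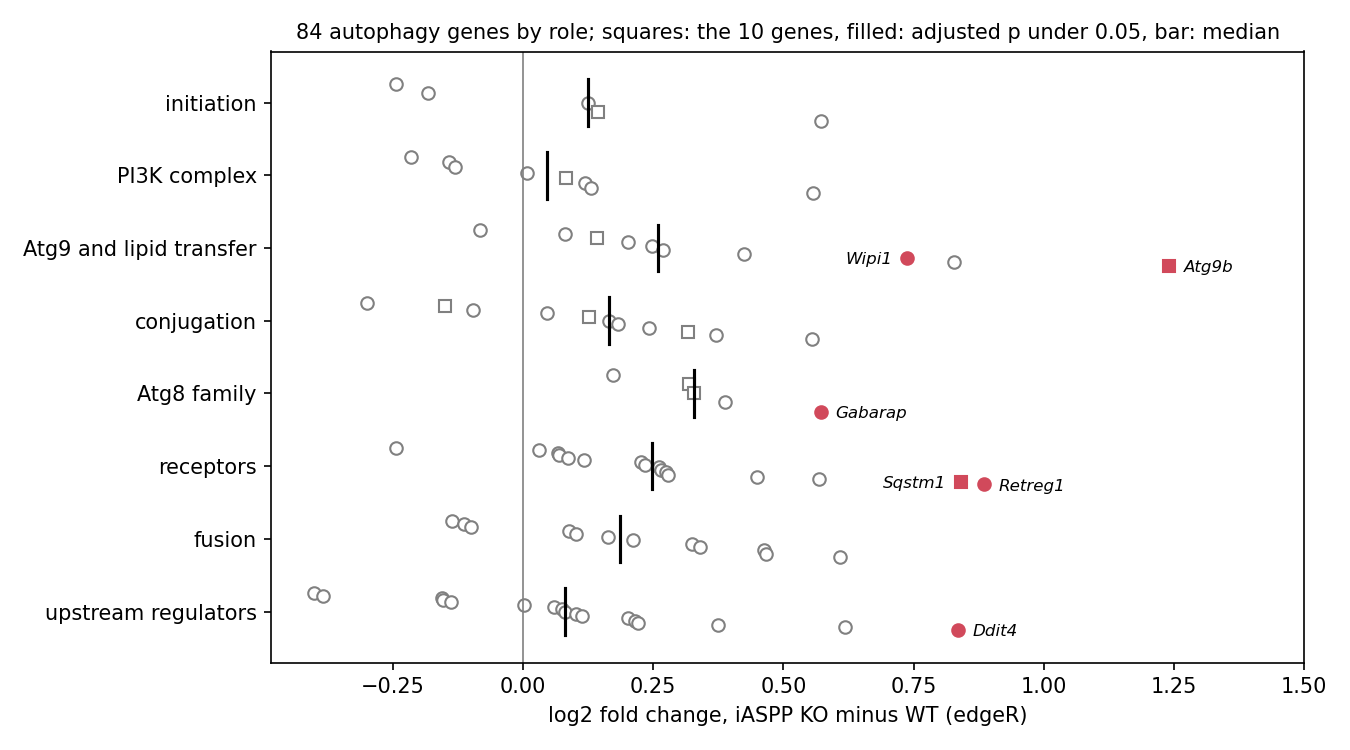
Log2 fold change (KO minus WT, edgeR) of 84 autophagy genes in 8 groups by role, with squares for the 10 genes, circles for the 74 others, red filled symbols for an adjusted p under 0.05 and a black bar for each group's median. The 6 red symbols all lie to the right of 0.5, and every group's median lies between 0.05 and 0.33.

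The genes most like Atg9b over the 6 libraries, by Pearson's r of log2 CPM among 14915 other tested genes, were Wipi1 (0.999), Tmem132b (0.998) and Atp6v1f (0.997), the last a subunit of the proton pump that acidifies lysosomes. For Sqstm1 they were Gabarap (0.996), AU040320 (0.994) and Myo1d (0.993). Atg9b and Sqstm1 correlated at 0.978 with each other. These values describe 6 libraries that share 3 batches: 197 genes exceeded 0.95 for Atg9b and 159 for Sqstm1. Of the most similar genes, Tmem132b, Atp6v1f and AU040320 did not pass the test themselves (log2 fold changes 1.57, 0.53 and 0.47, adjusted p = 0.547, 0.0514 and 0.0971), and Myo1d did (0.87, adjusted p = 0.00741).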

How the data were processed

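Total RNA of 6 cultures was depleted of ribosomal RNA and sequenced as single stranded-library reads of 42 bases. The authors trimmed the reads with cutadapt 2.10, aligned them to GRCm38 with STAR 2.7.3, and deposited raw read counts per gene name from featureCounts 2.0.0 (exons, GENCODE vM25, by strand). Their deposited table of a DESeq2 comparison (moderated fold changes and p-values) was not used. Groups and batches were taken from the labels. All columns of counts were mapped to samples.

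The comparison used edgeR's quasi-likelihood test (version 4.0.16, run under R 4.3.3) on 14916 genes kept by filterByExpr, with TMM scaling, terms for batch and condition, and a Benjamini-Hochberg threshold of 0.05. Each SE was derived from the log2 fold change and its F statistic. For single batches, log2 CPM (prior count 2) of WT was subtracted from that of KO. The pairing comes from the series' design, in which each batch was split, and deviations of same-batch libraries correlated at 0.302, 0.368 and 0.568. Counts of cultures of one group differed by a chi-square of 40.1 to 169 per gene, far above sampling noise, and none was treated as a duplicate. On simulated counts with 200 genes changed by 1.5 on the log2 scale, the fit, which kept 14240 genes, recovered 71.0%, with 5.33% false calls. That change is larger than the fitted one of Atg9b (1.24), the largest among the chosen genes. Recovery of smaller changes, such as those of the genes that did not pass, was not tested. Reads carry no molecular identifiers, so the precision from depth is that of counting alone.

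Exon overlaps and read-length windows came from GENCODE vM21 on the same build, and promoters from RefSeq. Alternatives were no replicate block, DESeq2 1.42.0, its size factors, upper-quartile scaling, 2 other filters, robust dispersion, and each batch left out. The genes named are the 10 chosen, Ppp1r13l, preset partners, each wider gene that passed, and the 3 genes most like each called gene. The near-threshold genes, Prkaa1, the overlapping genes other than Nos3 and the named markers were chosen after their values were seen. Genes and lists were chosen with earlier results of these data known. Python 3.11.15 with pandas 2.3.3 and matplotlib 3.10.9 served for tables and plots.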

Additional observations from a re-analysis of the deposited data

How the results depend on the processing

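Of 100 alternative values for the 10 genes, 96 kept their direction and side of the threshold. Atg9b and Sqstm1 passed in every alternative except the fit without the replicate block, where both missed, and their log2 fold changes ranged from 1.02 to 1.43 and from 0.81 to 0.92. A sign turned in 2 cases: with a batch left out, Ulk1 ranged from -0.031 (without batch 1) to 0.28, and Becn1 from -0.025 (without batch 3) to 0.16. The count of the 10 genes higher in KO was 0 without the replicate block and 2 in each fit that left out a batch (range 2 to 2), and 0 were lower in each (range 0 to 0). The count of the 74 wider genes higher in KO, 4 in the reported fit, was 0 without the replicate block, 9 with DESeq2, 7 with DESeq2's size factors, 10 with no filter, 7 with at least 10 counts in every library, 7 with robust dispersion, and 2 to 9 with a batch left out, where 0 to 1 were lower (Prkaa1, without batch 3). Over all genes and both directions, the 614 calls among 14916 genes became 0 of 14916 without the block and 893 of 12121 with DESeq2. They were 695 of 14916 with DESeq2's size factors, 1115 of 31932 with no filter and 711 of 12401 with at least 10 counts in every library. Robust dispersion gave 742 of 14916. Without batch 1, 2 and 3 the calls were 320 of 15437, 291 of 15236 and 1455 of 15261, in that order. The total of calls thus moved with the setting too. The cause of these changes was not tested. Atg12, Map1lc3b and Gabarapl1 differed by about 0.32 on the log2 scale, with unadjusted p of 0.0293, 0.0305 and 0.0331 in edgeR. None of them passed after adjustment over 14916 genes. The fit had 3 batches and 2 residual degrees of freedom, with a further 8.17 drawn from all tested genes.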
